A study of Mus musculus with 4 samples.

Results

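The regions described here are places on mouse chromosomes 1 to 19 that were called as bound by Ldb1 and by Gata1 but not by Tal1. They come from chromatin immunoprecipitation followed by sequencing (ChIP-seq) of total bone marrow, in a study of the part of Ldb1 complexes in erythroid gene activation. Called sites of the 3 antibodies whose neighbouring centres lay at most 200 bp apart were chained into places. A place was kept when it held at least 1 Ldb1 and 1 Gata1 site and no Tal1 site. This left 473 of 9522 places, called members below. A Tal1 site lay within 1000 bp of 44 members, and the other 429 had none that near.

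All 4 libraries came from total bone marrow, 3 made with an antibody (to Ldb1, to Scl/Tal1, called Tal1 below, or to Gata1) and 1 with control IgG. The sources used here do not give strain, sex, age or genotype of the mice. With 1 library per antibody no difference between antibodies could be tested, and no p-value is given. Intervals are at the 95% level and cover counting error only. Tags carry no molecular identifiers, and amplified copies are not separate molecules. Intervals on all tags count such copies as separate and may be too narrow even for counting error. The libraries held 5767555 to 7873298 tags, of which 63.2% to 88.97% had a distinct position and strand. IgG tags were 36 bases long and antibody tags 25, so the control was not matched in tag length.

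Ldb1 is an adaptor that binds no DNA itself. In red cell precursors it sits, through the LIM-only protein Lmo2, on Tal1 with its E protein partner and on Gata1. Tal1 binds E-boxes and Gata1 binds GATA motifs, and the complex is known for sites where an E-box lies next to a GATA motif. Ldb1 also pairs with itself, which brings distant enhancers and promoters of erythroid genes together. Gata1 further works with Fog1 and at sites outside this complex, and it acts in megakaryocytes, mast cells and eosinophils as well. Total bone marrow holds many cell types, so tags of several libraries at 1 place may come from different cells, and fewer cells of a type cannot be told apart from less binding per cell.

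Places with an Ldb1 and a Gata1 site usually had a Tal1 site too. Of the 2722 places with the first pair, 473 (17.4%, interval 15.97 to 18.85) lacked the third factor. The corresponding share without Gata1 among the 3082 places of Ldb1 and Tal1 was 27.0% (25.5 to 28.6). Among the 2721 places of Tal1 and Gata1, 17.3% (15.9 to 18.8) had no Ldb1 site. These shares follow from the 3 lists and their minimum tag numbers, which were 9 for Ldb1, 8 for Tal1 and 11 for Gata1.

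Members were chosen by the Ldb1 and Gata1 calls and the lack of a Tal1 call in these same libraries, so the levels that follow describe the set and test nothing. Sites of members were weaker than those at places of all 3 and, by their medians, stronger than those at places of Ldb1 alone or Gata1 alone. The number of tags that the authors' caller gave to the Ldb1 site of a member had a median of 12 (quartiles 10 to 15, range 9 to 53), and 91 members were at the minimum of 9. At the 2249 places of all 3 antibodies this median was 27 (17 to 45), at places of Ldb1 alone 10 (9 to 12) and over the whole Ldb1 list 15. For Gata1 the caller's tag number had a median of 15 at members (13 to 19, range 11 to 55) 24 at places of all 3 (17 to 36), 13 at places of Gata1 alone (12 to 16) and 16 over the whole Gata1 list, so members stood near its middle. Each member held 1 Ldb1 site, and 1 member held a second Gata1 site.

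Tags within 250 bp of the place centre gave the level of each library, in tags per 1000000 tags of that library (RPM). Ldb1 had a median of 3.45 RPM over the 473 members, with 10% of members under 2.20 and 10% above 5.81. Gata1 had a median of 2.92 RPM (2.03 and 4.57 at the same limits). Tal1 had a median of 1.91 RPM (0.867 and 3.26), and IgG one of 0.269 RPM (0 and 0.672). Tal1 thus stood below the factors that were called and above IgG in the typical member. In summed tags Ldb1 was 13.5 times IgG (interval 12.6 to 14.4), Gata1 11.2 times (10.5 to 11.9) and Tal1 7.51 times (7.02 to 8.03). IgG itself was 1.22 times (1.15 to 1.31) as dense at members as in the flanks, taken from 2 to 5 kb on either side.

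Leaving aside the 44 members near a Tal1 site changed this little. At the 429 others the Tal1 median was again 1.91 RPM, with a range from 0 to 6.24, and the summed fold over IgG was 7.14 (6.64 to 7.68). Against its own flanks 2 to 5 kb away, Tal1 was 4.94 times (4.78 to 5.11) as dense, Ldb1 9.48 times (9.24 to 9.73) and Gata1 8.26 times (8.06 to 8.47). The same ratio was 1.20 (1.12 to 1.29) for IgG. For comparison, Tal1 was 4.41 times IgG (4.27 to 4.55) at the 1487 places of Ldb1 alone, 3.89 times (3.78 to 3.995) at the 2405 places of Gata1 alone and 45.9 times (44.6 to 47.1) at places of all 3. Those sets include places near other Tal1 sites, and the folds over IgG of the single-factor sets lay below the interval of the members. Against its own flanks, Tal1 was 3.92 times (3.86 to 3.98) as dense at places of Gata1 alone. At places of Ldb1 alone it was 4.84 times (4.75 to 4.93), which overlapped the interval of the 429 members. Mean Tal1 was 1.94 RPM at places of Ldb1 alone and 1.98 RPM at the 429 members. Mean IgG was 0.439 and 0.278 RPM. The sum for Ldb1 alone includes 1 place with 106.6 RPM of IgG, and the median Tal1 level was 1.39 RPM in each of the single-factor sets.

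Single places showed the same order by a rule of size, with the level at least 4 times that of IgG and IgG set to at least 3 tags. Ldb1 passed at 451 of 473 members (95.3%), against 62.0% of all 9522 places. Gata1 passed at 440 (93.0%), against 65.2%. Both calls chose the members, so these counts hold no finding. Tal1 passed at 270 members (57.1%, 52.5 to 61.6). That was below the 65.6% of all places, many of which hold a Tal1 site, and above the 32.1% of the 4365 places without one. With tags within 100 bp Tal1 passed at 124 members (26.2%, 22.3 to 30.4). The share was 55.0% of all places and 12.1% of those without a Tal1 site. The floor of 3 IgG tags was kept in this narrower window, which makes the rule stricter, so the counts of the windows are not comparable. The summed Tal1 fold over IgG at the 429 members without a nearby Tal1 site rose over the same change, from 7.14 to 12.3. Within 250 bp all 3 antibodies passed at 260 members (55.0%), against 37.1% of all places and 14.6% of those without a Tal1 site. The Ldb1 and Gata1 calls chose the members, so this joint count adds no finding to that of Tal1. At 8 times IgG, Tal1 passed at 35 members (7.40%), against 39.2% of all places and 4.51% of those without a Tal1 site. At 2 times IgG it passed at 417 (88.2%), against 84.6% and 66.9%.

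The Tal1 tags at members without a nearby Tal1 site gathered at the centre of the place. Within 100 bp of the centre Tal1 had 6.07 RPM per kb, and from 100 to 250 bp it had 2.56. The density was 1.12 RPM per kb from 250 to 500 bp, 0.817 from 500 to 1000 bp and 0.802 from 2 to 5 kb. Ldb1 fell over the same steps from 12.99 to 3.96, 1.32 and 0.881 RPM per kb, and Gata1 from 9.67 to 3.94, 1.52 and 1.05. IgG showed no such peak, with 0.494 RPM per kb within 100 bp and 0.645 from 250 to 500 bp. IgG was used in calling the sites, so its level at the centre is no independent background.

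The strands of these tags were also ordered. Around a bound point, tags read from the sense strand start to its left and tags from the antisense strand start to its right. Of the distinct Tal1 sense tags that started within 250 bp at the 429 members, 68.5% (66.0 to 70.8) lay left of the centre. Of the antisense tags, 69.0% (66.6 to 71.3) lay right of it. Ldb1 gave 78.1% and 78.3%, and Gata1 73.9% and 74.4%. IgG gave 40.2% (34.9 to 45.6) and 43.6% (38.4 to 49.0), the opposite side. The Tal1 peaks in bins of 20 bp stood at -30 and 50 bp from the centre, and those of Ldb1 at -70 and 50 bp. At places of all 3 the Tal1 shares were higher, 75.97% (75.6 to 76.3) and 75.3% (74.9 to 75.7). The caller finds Tal1 sites by this strand order, so places of all 3 were chosen for it and the difference holds no finding. The plot of tag starts around the members shows the strand order.

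**Figure D1:**
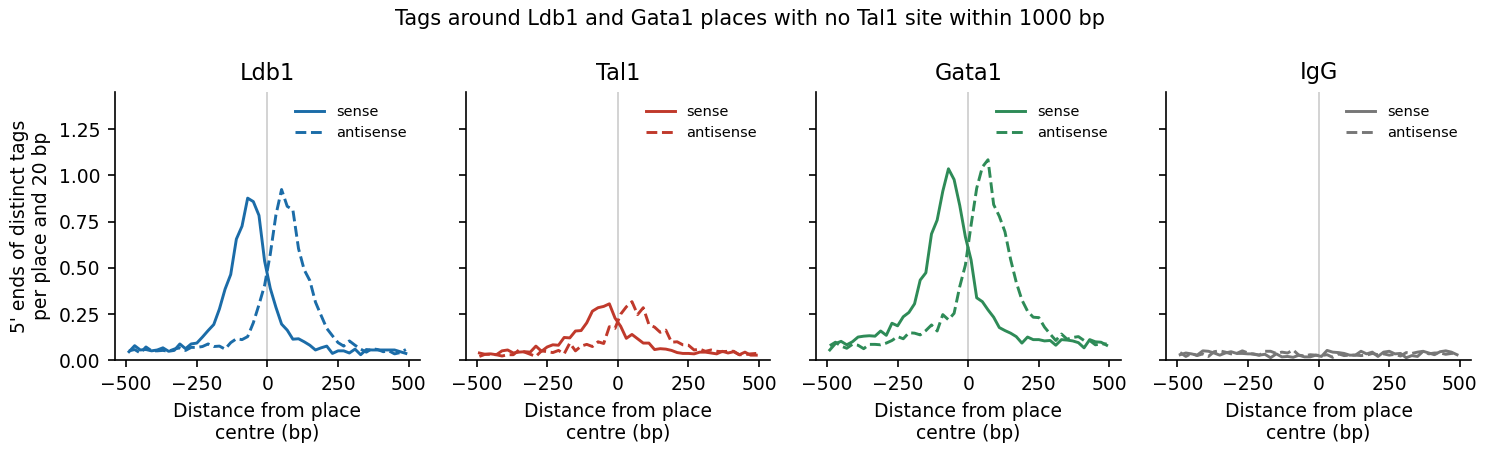
Starts (5′ ends) of distinct tags per place in bins of 20 bp, by distance from the place centre in bp, for the 429 members with no Tal1 site within 1000 bp; solid lines are sense tags and dashed lines antisense tags, 1 panel per library. Tal1 has paired peaks, as Ldb1 and Gata1 do, at a lower height (0.305 and 0.317 tags per place and bin at their tops, against 0.876 and 0.923 for Ldb1), and IgG stays at or below 0.0559.

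Tal1 tags at members were also set beside the caller's minimum, in a wider count than the caller's own. Within 250 bp of the centre, the 429 members had a median of 7 distinct Tal1 tags (range 0 to 17), against the caller's minimum of 8. No Tal1 tag was found at 2 members, 1 to 3 distinct tags at 46, 4 to 7 at 207, 8 to 11 at 151 and 12 to 19 at 23. Places of all 3 had at least 8 distinct Tal1 tags without exception, which their Tal1 call nearly requires, and 95 of these 2249 places had 8 to 11. The sets therefore overlapped between 8 and 17 tags.

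A window of 250 bp is wider than what the caller counts. It takes sense tags on the left and antisense tags on the right, at least 2 on each side, and its fragment length for Tal1 was 188 bp. At least 8 distinct tags within 250 bp were found at 202 members (42.7%), against 66.3% of all places and 26.4% of places without a Tal1 site. Counted in the caller's directional way at the place centre, the minimum was met at 11 members (2.33%), against 51.5% of all places and 1.03% of those without a Tal1 site. At the best position within 100 bp of the centre, an alternative chosen after seeing the data, it was met at 39 members, against 56.0% and 4.17%. The caller's comparison with IgG was not rerun. The median member without a nearby Tal1 site had 4 directional Tal1 tags, and the median place of all 3 had 23.

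**Figure D2:**
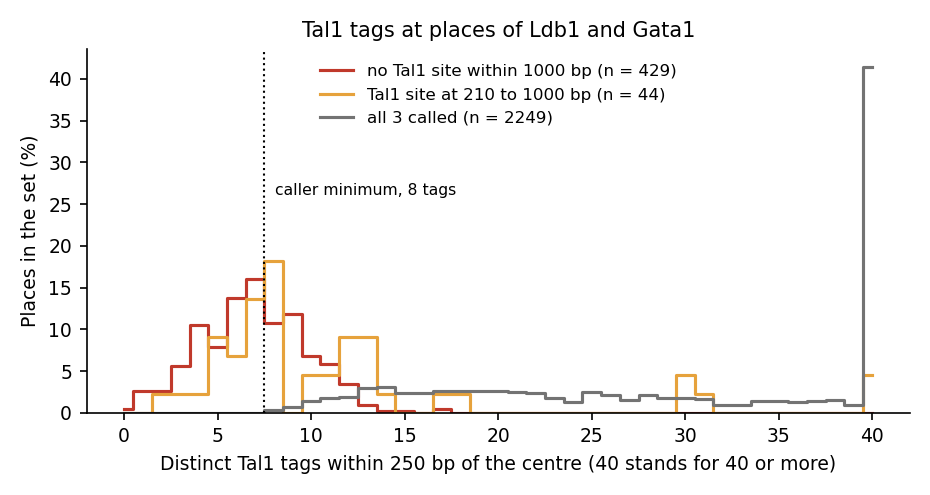
Share of places in each set, in percent, by the number of distinct Tal1 tags within 250 bp of the centre; the last step holds 40 tags or more and the dotted line marks the caller's minimum of 8. The caller counts by strand and in a narrower span, so a place right of the line need not meet its minimum. Members without a Tal1 site within 1000 bp reach at most 17 tags, and 75.1% of the places of all 3 have 20 or more.

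The share of places without Tal1 fell as the other sites grew stronger. Among places of Ldb1 and Gata1 whose Ldb1 site had 9 tags, the caller's minimum, 61.9% (53.5 to 69.8) had no Tal1 site. The share was 52.2% (46.1 to 58.2) at 10 to 11 tags, 35.99% (30.7 to 41.6) at 12 to 14 and 21.6% (17.7 to 25.9) at 15 to 19. It was 5.98% (4.15 to 8.29) at 20 to 29 tags, and 5 of 1027 places (0.487%, 0.158 to 1.13) with 30 tags or more had none. Classed by the Gata1 site instead, the share went from 39.4% (33.7 to 45.3) at 11 to 12 tags to 1.37% (0.591 to 2.67) at 36 or more.

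Tal1 levels at members changed little over these classes. The median was 1.73 RPM (quartiles 1.21 to 2.43) for the 91 members with 9 Ldb1 tags and 2.43 RPM (1.39 to 2.95) for the 33 with 20 to 29. At places of all 3 the corresponding medians were 4.42 (3.29 to 7.89) and 8.32 RPM (5.55 to 11.6). Places of Ldb1 alone lay below the members in each class up to 29 tags, with 1.21 RPM (0.694 to 1.91) at 9 tags and 2.08 RPM (1.39 to 2.60) at 20 to 29, and their quartile ranges overlapped those of the members. A place with a high Tal1 level would in most cases have been called and so left the set, which limits how far the members' levels can rise.

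**Figure D3:**
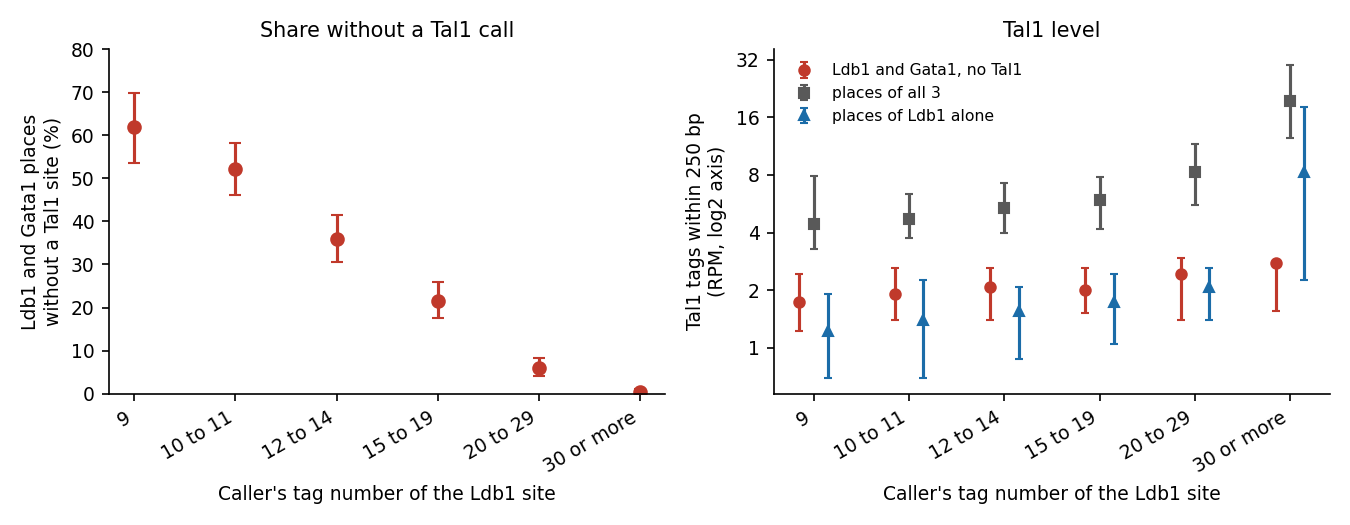
Left, share of Ldb1 and Gata1 places without a Tal1 site, in percent with exact 95% intervals, by the caller's tag number of the Ldb1 site. Right, median Tal1 level in RPM on a log2 axis with quartiles as bars, for members, places of all 3 and places of Ldb1 alone; the share falls from 61.9% to 0.487%, and the members' Tal1 medians stay between 1.73 and 2.77 RPM.

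The ratio of Gata1 to Ldb1 at members was above that at places of all 3. In summed RPM, Gata1 was 0.827 times Ldb1 (0.806 to 0.848) at members and 0.511 times (0.507 to 0.515) at places of all 3. Gata1 exceeded Ldb1 at 165 members (34.9%), against 42.0% of all places. Within classes of Ldb1 strength up to 29 tags the quartile ranges of Gata1 overlapped between members and places of all 3. At 10 to 11 Ldb1 tags the Gata1 median was 2.79 RPM (2.41 to 3.68) for members and 3.05 RPM (2.54 to 3.68) for places of all 3. At 20 to 29 Ldb1 tags the medians were 3.56 (2.67 to 4.45) and 4.06 RPM (3.18 to 5.21). At 30 tags or more, the 5 members had 4.70 RPM (4.45 to 4.83) and places of all 3 had 6.86 RPM (5.21 to 9.65), without overlap of the quartiles. The quartile ranges of Tal1 did not overlap between members and places of all 3 in the classes of 10 to 11 and 20 to 29 tags. Members lack a Tal1 call and places of all 3 have one, so this gap restates the choice. The same holds for the ratios of Tal1 to Ldb1 in these sets. In summed RPM Tal1 was 0.524 times Ldb1 (0.506 to 0.542) at the 429 members and 1.30 times (1.29 to 1.31) at places of all 3. At the 1487 places of Ldb1 alone it was 0.508 times Ldb1 (0.499 to 0.518), so the low ratio was not particular to members. Tal1 exceeded Ldb1 at 63 of the 473 members (13.3%), against 58.3% of all places and 34.1% of places without a Tal1 site. The last group includes places without an Ldb1 site. Tal1 exceeded Ldb1 at 8.54% of places of Ldb1 alone and at 53.9% of places of Gata1 alone.

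The Ldb1 and Gata1 sites of a member lay close together. The median distance between the centres was 40 bp (quartiles 20 to 70), against 30 bp (10 to 70) at places of all 3. The centres were at most 50 bp apart at 299 members (63.2%), the same point at 35, and more than 100 bp apart at 49 (10.4%). At places of all 3, 65.6% were within 50 bp and 11.9% over 100 bp. The called intervals themselves overlapped at 356 members (75.3%) and at 85.4% of places of all 3.

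The strongest members differed widely in Tal1. Ranked by the caller's tag numbers of Ldb1 and Gata1 together, the first member lay on chromosome 7 from 66075651 to 66075691 in mm8. It had 43 Ldb1, 66 Gata1, 26 Tal1 and 1 IgG tags, or 6.75, 8.38, 4.51 and 0.134 RPM. With 1 IgG tag its Tal1 fold of 33.5 had an interval of 5.51 to 1375, and only 11 of its 26 Tal1 tags had a distinct position and strand. The centres of its Ldb1 and Gata1 sites coincided, and the nearest Tal1 site was 70680 bp away.

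The second lay on chromosome 2 from 30828651 to 30828691, with 51 Ldb1, 51 Gata1, 14 Tal1 and 2 IgG tags. The third, chromosome 15 from 77947131 to 77947291, had 50 Ldb1 and 48 Gata1 tags but 7 Tal1 and 4 IgG tags. Tal1 was 2.26 times IgG there, with a lower bound under 1 (0.574 to 10.5). The sixth, chromosome 9 from 108684131 to 108684311, was alike, with 39 Ldb1, 46 Gata1, 6 Tal1 and 4 IgG tags and a Tal1 fold of 1.93 (0.459 to 9.32).

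The seventh, chromosome 7 from 6014191 to 6014311, had no Tal1 tag at all beside 54 Ldb1, 41 Gata1 and 1 IgG tags. Ldb1 and Gata1 stood there at 8.48 and 5.21 RPM, and a count of 0 (3 tags of the library) allows up to 0.52 RPM of Tal1. The nearest Tal1 site was 888300 bp away. The fifth, chromosome 15 from 76635791 to 76635911, had 54 Ldb1, 46 Gata1, 17 Tal1 and 3 IgG tags. The eighth, chromosome 2 from 29505451 to 29505511, had 55, 35, 16 and 2 in the same order.

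The fourth stood apart from the other 7. It lay on chromosome 12 from 111965891 to 111966011, with 125 Ldb1, 38 Gata1, 86 Tal1 and 4 IgG tags, and a Tal1 site of 37 caller tags was centred 220 bp away. Its Tal1 level, 14.9 RPM, was 27.7 times IgG (10.4 to 104), and its place is without Tal1 only by the chaining distance. Over the other 7 the Tal1 levels ran from 0 to 4.51 RPM and the Ldb1 levels from 6.12 to 8.64 RPM, without overlap. These places were chosen for strong Ldb1 and Gata1 sites and for no Tal1 call, so this gap holds no finding. The plot of the 8 strongest members gives all 4 libraries.

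**Figure D4:**
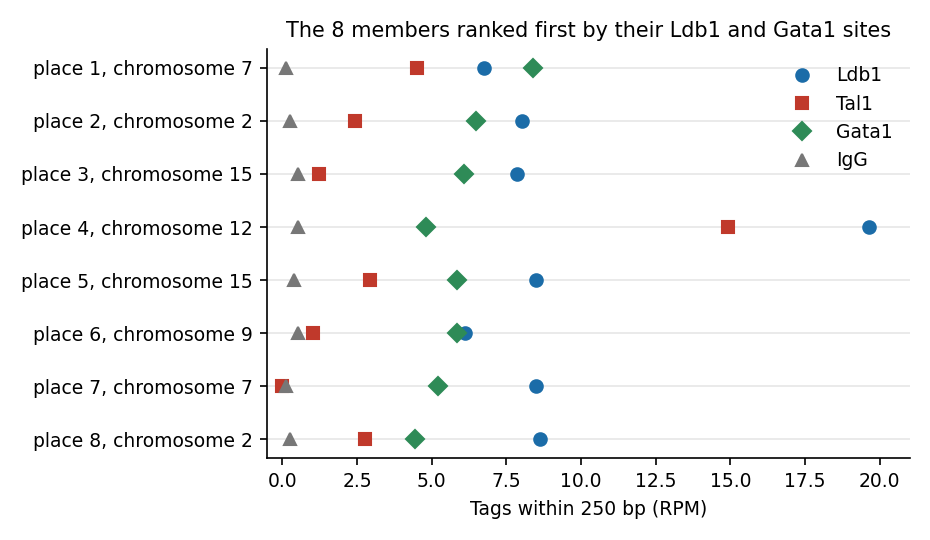
Tags within 250 bp in RPM for each library at the 8 members that rank first by the caller's Ldb1 and Gata1 tag numbers together, 1 row per place and 1 symbol per library. Tal1 lies between 0 and 4.51 RPM at 7 places and at 14.9 RPM at the fourth, which has a Tal1 site 220 bp away.

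The members with the lowest share of Tal1 were looked up among those with no Tal1 site within 1000 bp and at least 30 distinct Ldb1 and Gata1 tags together, a pool of 342 members. The first was the place on chromosome 7 just described. The second, chromosome 15 from 72395951 to 72395991, had neither Tal1 nor IgG tags beside 15 Ldb1 and 21 Gata1 tags. Of all 473 members, 96 had no IgG tag, and whether this window gives few tags in general was not tested. The third, chromosome 2 from 152723831 to 152723911, had 32 Ldb1, 16 Gata1, 1 Tal1 and 4 IgG tags. Its Ldb1 fold over IgG was 9.34 (3.31 to 36.4) and its Tal1 fold 0.322 (0.00655 to 3.26). Chromosome 5 from 136620411 to 136620551 had 26 Ldb1, 18 Gata1, 3 Tal1 and 4 IgG tags. Chromosome 3 from 104043391 to 104043671 had 22, 33, 2 and 2. In these 5 places Tal1 was at or below the level of a few tags, where Ldb1 and Gata1 each had at least 15. They were picked for this out of 342, so it restates the choice, and the intervals do not allow for the picking.

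At the other end, 5 members without a Tal1 site within 1000 bp held the most distinct Tal1 tags. The first, chromosome 2 from 128889991 to 128890271, had 23 Ldb1, 38 Gata1, 23 Tal1 and 5 IgG tags, and 17 of its Tal1 tags were distinct. The second, chromosome 11 from 62418971 to 62419391, had 33, 35, 31 and 8 in the same order, also with 17 distinct Tal1 tags. Its Tal1 fold was 4.997 (2.25 to 12.6), and its directional Tal1 tags reached the minimum of 8. Chromosome 2 from 24933191 to 24933351 had 35 Ldb1, 20 Gata1 and 29 Tal1 tags and no IgG tag. Chromosome 7 from 28662611 to 28662671 had 39, 21 and 28 in that order, and IgG again had none. Taking 3 IgG tags per place as the floor, Tal1 was at least 12.5-fold higher at the former and at least 12.04-fold higher at the latter. These limits allow for the low IgG count only and leave out the counting error of Tal1. Of the Tal1 tags, 15 were distinct at the former and 14 at the latter. Chromosome 7 from 59096471 to 59096791 had 15 Ldb1, 29 Gata1, 19 Tal1 and 1 IgG tags, and the nearest other place was 3178485 bp away.

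IgG was high at a few members. The most IgG tags, 11, lay at chromosome 15 from 98395311 to 98395931, which had 22 Ldb1, 35 Gata1 and 7 Tal1 tags. Its Ldb1 fold was 2.34 (1.09 to 5.33), and Tal1 stood at 0.821 times IgG (0.270 to 2.32). The next, chromosome 6 from 83020211 to 83020291 and chromosome 2 from 125427511 to 125427631, had 9 and 8 IgG tags and Tal1 folds of 0.860 (0.252 to 2.70) and 1.29 (0.422 to 3.94). At all 3 places the Tal1 level was not distinguishable from IgG at this depth. They were picked for the most IgG tags, which lowers their folds, so this partly restates the choice.

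The 44 members with a Tal1 site within 1000 bp had more Tal1 in windows of 250 bp, and the difference depended on window and chaining. Their Tal1 median was 2.60 RPM (range 0.867 to 21.8), and the summed fold over IgG was 10.3 (8.49 to 12.6), against 7.14 at the 429 others. With tags within 100 bp the folds were 13.3 (9.62 to 18.8) and 12.3 (10.95 to 13.9), with overlapping intervals. With chaining at 500 bp, which redraws the places, they were 6.95 (5.28 to 9.26) and 6.89 (6.43 to 7.38), and at 100 bp 33.1 (28.9 to 38.1) and 7.28 (6.74 to 7.87). Tal1 was 0.828 times Ldb1 (0.760 to 0.903), against 0.524 at the 429 others. Ldb1 had the same median in both, 3.45 RPM, and Gata1 had 3.43 against 2.92. The nearest Tal1 site was a median of 530 bp away (quartiles 342.5 to 712.5 bp). It belonged to a place of all 3 for 21 members, to a place of Tal1 alone for 15, and to a place of Ldb1 and Tal1 or of Tal1 and Gata1 for 4 each.

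Much of the added Tal1 lay on the side of that site. For the 11 members whose Tal1 site was up to 300 bp away, 356 of 448 Tal1 tags in the window (79.5%, 75.4 to 83.1) lay in the 250 bp facing it, and more lay there than on the far side at 10 of the 11. Of the Ldb1 tags 60.9% (56.5 to 65.3) did so, and of the Gata1 tags 57.1% (51.9 to 62.2). Of the 356 facing Tal1 tags, 121 came from 1 member, on chromosome 8. The intervals pool the tags of all 11 members and leave out the spread between members. For the 33 members with a Tal1 site over 300 and up to 1000 bp away, the facing share was 53.0% (48.4 to 57.6) for Tal1, 50.9% (47.3 to 54.6) for Ldb1 and 52.3% (49.0 to 55.5) for Gata1. The Tal1 median was 5.20 RPM for the 11 and 2.60 RPM for the 33.

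The clearest case lay on chromosome 8 from 97676751 to 97676831. It had 110 Ldb1, 44 Gata1, 126 Tal1 and 1 IgG tags, and a Tal1 site of 120 caller tags stood 260 bp away. Of the Tal1 tags 121 lay towards that site and 5 away from it, and of the Ldb1 tags 92 and 18. This place was chosen after its values were seen.

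Members just over the limit of 200 bp varied widely in Tal1. The members with the nearest Tal1 site just over the limit were chromosome 10 from 79802651 to 79802871 (210 bp), the fourth member above (220 bp) and chromosome 6 from 58571651 to 58571731 (230 bp). They had 13, 86 and 48 Tal1 tags. The last was 1 of 5 members tied at 230 bp, named for its lower chromosome number, and the other 4, on chromosomes 13, 15, 16 and 17, had 30, 7, 53 and 19. The places of all 3 with the longest join to Tal1 lay on chromosome 5 from 35197811 to 35198251 (200 bp), chromosome 8 from 35200871 to 35201531 (170 bp) and chromosome 9 from 65013611 to 65013971 (170 bp), with 22, 63 and 99 Tal1 tags.

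**Figure D5:**
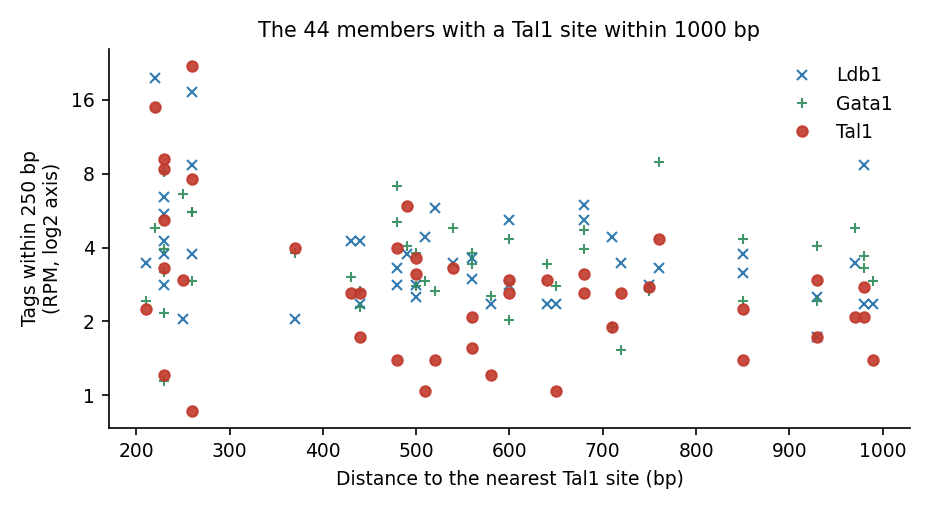
Tags within 250 bp in RPM on a log2 axis against the distance in bp from a site of the member to the nearest Tal1 site, for the 44 members with such a site within 1000 bp; each member has 1 symbol per antibody library. Tal1 reaches 21.8 RPM among the 11 members up to 300 bp from a Tal1 site and 5.90 RPM among the other 33.

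By the median distance to a Tal1 site, members lay between places of all 3 and places of Ldb1 alone or Gata1 alone. The nearest Tal1 site outside the place was a median of 31380 bp away, against 14600 bp for places of all 3, 49950 bp for places of Ldb1 alone and 37090 bp for those of Gata1 alone. A Tal1 site lay within 20 kb of 208 members (43.97%, 39.4 to 48.6), against 56.0% (53.9 to 58.0) of places of all 3, 33.2% (30.8 to 35.7) of places of Ldb1 alone and 39.0% (37.0 to 40.98) of those of Gata1 alone. Within 1000 bp the shares were 9.30% (6.84 to 12.3), 15.96% (14.5 to 17.5), 8.74% (7.36 to 10.3) and 10.98% (9.76 to 12.3). A place of all 3 lay within 20 kb of 141 members (29.8%, 25.7 to 34.2), against 35.9% for other places of all 3, 29.1% for Ldb1 with Tal1, 31.1% for Tal1 with Gata1, 19.3% for Ldb1 alone and 23.1% for Gata1 alone. Members seldom neighboured each other, with another member within 20 kb for 41 of 473 and a median distance of 1005660 bp to the nearest. Places along a chromosome are not independent, and these shares were not tested against each other.

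Members were found on all 19 autosomes, from 13 on chromosome 12 to 51 on chromosome 2. As a share of the places with Ldb1 and Gata1, they ran from 10.1% (5.48 to 16.6) on chromosome 12 to 29.6% (21.2 to 39.2) on chromosome 19, where 32 of 108 such places had no Tal1 site. Chromosome 2 had 23.6% (18.1 to 29.8). The intervals of chromosomes 19 and 2 lay above the 17.4% of all autosomes and that of chromosome 12 below it. These 3 were picked out of 19 by their values, and the difference was not tested.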

How the data were processed

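ChIP-seq libraries of total mouse bone marrow (Ldb1, Tal1, Gata1 and IgG, 1 each) were deposited by the authors as aligned tags. The build, mm8, is taken from the submitters' processing notes, and no aligner is named in the sources used here. The score column of the deposited tag files was not used. Binding sites were called by the authors with SISSRs 1.4 against IgG (1 tag per position, windows of 20 bp, p setting 0.001, e-value 10), per the file headers. The authors' lists give for each site a count of tags, a fold over background and a p-value; here the tag number ranked and classed sites, and the fold and p-value were not used.

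Tags were counted here as deposited, by tag centre, in scipy 1.17.1, pandas 2.3.3 and numpy 2.4.6 under Python 3.11.15. Ratios carry exact conditional and shares exact Clopper-Pearson 95% intervals. Chaining, ratios and the size rule were tested on simulated data. Depth limits single places: 3 tags are 0.381 to 0.52 RPM. The places named are the 8 members with the best mean rank of caller tags, the 5 with the most and the 5 with the relatively fewest Tal1 tags, 3 on each side of the chaining limit and the 3 with the most IgG tags. Members, lists and rules were chosen with earlier results of these data known. Motifs were not searched and genes not assigned, since a genome of mm8 was not used here.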

Additional observations from a re-analysis of the deposited data

How the results depend on the processing

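No paired analysis was possible because the design holds a single library per antibody, which also left no replicate to omit. Among 72 alternative values 31 stayed, meaning inside the interval of the reported value or, for counts, less than 1.5 times away, and 41 moved. In every setting with these folds, Ldb1 stood above Gata1 at all members, and Gata1 at all members above Tal1 at members far from Tal1 sites. Members have a Gata1 call and no Tal1 call in each setting, so the latter order is built in. Tal1 at members near a Tal1 site stood above Ldb1 at all members in some settings and below it in the others. Where above, the values were 33.1 against 16.97 (chaining at 100 bp), 12.3 against 7.84 (tags within 500 bp) and 26.7 against 22.96 (upper 50% of the lists). The motif search was not run. No cause of a move was tested.

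With tags within 100 bp, the folds over IgG were 12.3 for Tal1 at members far from Tal1 sites, 13.3 for Tal1 at members near one, 25.8 for Ldb1 and 19.4 for Gata1. The ratio of Tal1 to Ldb1 was then 0.468 at far members and 1.32 at places of all 3. With the floor of 3 IgG tags kept, 124 members had Tal1 at 4 times IgG. Within 500 bp the far Tal1 fold was 4.24, Ldb1 7.84, Gata1 6.72 and the far ratio 0.572. With 1 tag per position and strand Ldb1 was 12.1, and the ratios were 0.547 at far members and 1.34 at places of all 3. Against the own flank the far Tal1 fold was 4.94, Ldb1 9.42, Gata1 8.18 and the ratio at places of all 3 was 1.22.

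The upper 50% of the Ldb1 and Gata1 lists left 71 members, with folds of 8.44 for far Tal1, 26.7 for near Tal1, 22.96 for Ldb1 and 15.2 for Gata1. The ratios were 0.384 and 1.31, and 49 members had Tal1 at 4 times IgG. With at most 5 IgG tags far Tal1 was 8.22, Ldb1 15.6, Gata1 12.8 and the ratio at places of all 3 was 1.29. Chaining at 100 bp gave 33.1 for near Tal1, 16.97 for Ldb1, 12.4 for Gata1 and 1.288 for the ratio at places of all 3. Chaining at 500 bp gave 6.95 for near Tal1, beside 6.89 for far Tal1, and 1.315 for that ratio. At 2 and 8 times IgG, Tal1 passed at 417 and 35 members. A Tal1 site lay within 500 bp of 4.23% and within 2000 bp of 14.2%. Directional Tal1 tags met the minimum at 39 members at the best position, a setting chosen after seeing the data.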
